A study of Mus musculus with 6 samples.

Results

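Forkhead transcription factors were followed in mouse embryonic stem cells depleted of Panct1, a long noncoding RNA. The family was taken as every gene whose symbol is Fox with a subfamily letter from a to s and a number, without Foxa2 and Foxh1, and each gene was read through its probe set with the highest mean over the 6 arrays. This gave 35 genes with 78 probe sets, of 18193 genes measured. All cells belonged to 1 line, Oct4-Gip, which carries GFP and drug resistance under Oct4 regulatory sequence, and all were kept in serum with LIF, the cytokine that sustains self-renewal. A group of 3 arrays came from cells given 800 ng of an esiRNA against Panct1; an esiRNA is a mixture of small interfering RNAs made by enzymatic cutting. The 3 control arrays came from cells given an esiRNA against Luciferase, a gene mouse cells lack, and RNA was taken 72 hours after transfection of 60000 cells in both groups. All values are log2 signals of Affymetrix Mouse 430 version 2 arrays, and a difference is knockdown minus control on the log2 scale.

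Forkhead proteins share a winged-helix domain that binds DNA, and several of them open closed chromatin ahead of other factors. In pluripotent cells Foxd3 is needed for self-renewal, Foxo1 sustains Oct4 and Sox2 transcription, and Foxp1 is made there in a splice form of its own. The FOXO proteins are held out of the nucleus when insulin or IGF signalling activates AKT, FOXM1 drives genes of mitosis, and FOXJ1 switches on the genes of motile cilia. Many other members specify endoderm, mesenchyme, neural or sensory tissue.

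No array stood apart: array medians lay between 6.07 and 6.09, and arrays correlated at 0.997 to 0.998 within groups and at 0.991 to 0.993 between them. The depletion of Panct1 was not assessed, since no probe set is named for it. All 10 embryonic stem cell markers had signals above the upper quartile of every array (8.19 to 8.26), and 5 fell while 0 rose, where 12.9% of all genes rose and 11.3% fell. Of genes above the median signal of all probe sets, 32.4% changed in either direction. Of 10 trophectoderm markers 8 rose and 0 fell, and their log2 signals added up to 75.16 to 76.06 in controls and 87.19 to 87.37 in knockdown. Of 10 fibroblast markers 2 rose and 0 fell, with sums of 55.95 to 56.92 and 56.60 to 57.09, and of 10 primitive endoderm markers 3 rose and 3 fell, with sums of 69.27 to 69.83 and 69.23 to 69.73; over all genes 24.2% changed in either direction. Elf5 of the trophectoderm and Lum of the fibroblast markers lay below the arrays' lower quartile (4.65 to 4.70) throughout, and no marker of the other lists did. The part of these marker shifts in the forkhead values below was not tested. In RNA from whole cultures, fewer cells of a type and less RNA per cell cannot be told apart.

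The share of forkhead genes that changed was near that of all genes. Of the 35 members 7 passed the threshold, an adjusted p under 0.05 in limma over all genes, which is 20% of the family against 24.2% of all genes. Foxj1, Foxj2, Foxk2, Foxm1 and Foxn4 rose (background 12.9% of genes higher), and Foxd3 and Foxd1 fell (background 11.3% lower). For 11 members the knockdown and control arrays did not overlap, while 38.3% of all genes showed this. The median difference was -0.06 over the family and -0.02 over all genes. Only Foxd3 and Foxj1 both passed and moved by at least 1.5-fold, as 6.74% of all genes did, and Foxj1 only just, at 1.52-fold. Among the 20 members with a mean signal above the median of all probe sets (6.08) 6 passed, against 32.4% of genes that bright. Among the 15 others 1 passed, Foxd1, against 8.25% of such genes. The 5 rises became 3 without Luciferase control replicate 1, and the 2 falls became 4 with array weights. With the mean of each gene's probe sets 3 genes were higher. Of these, Foxj1 and Foxn4 have 1 probe set each, and Foxn3 was newly called. Foxj2, Foxk2 and Foxm1 lost their calls in that setting.

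**Figure D1:**
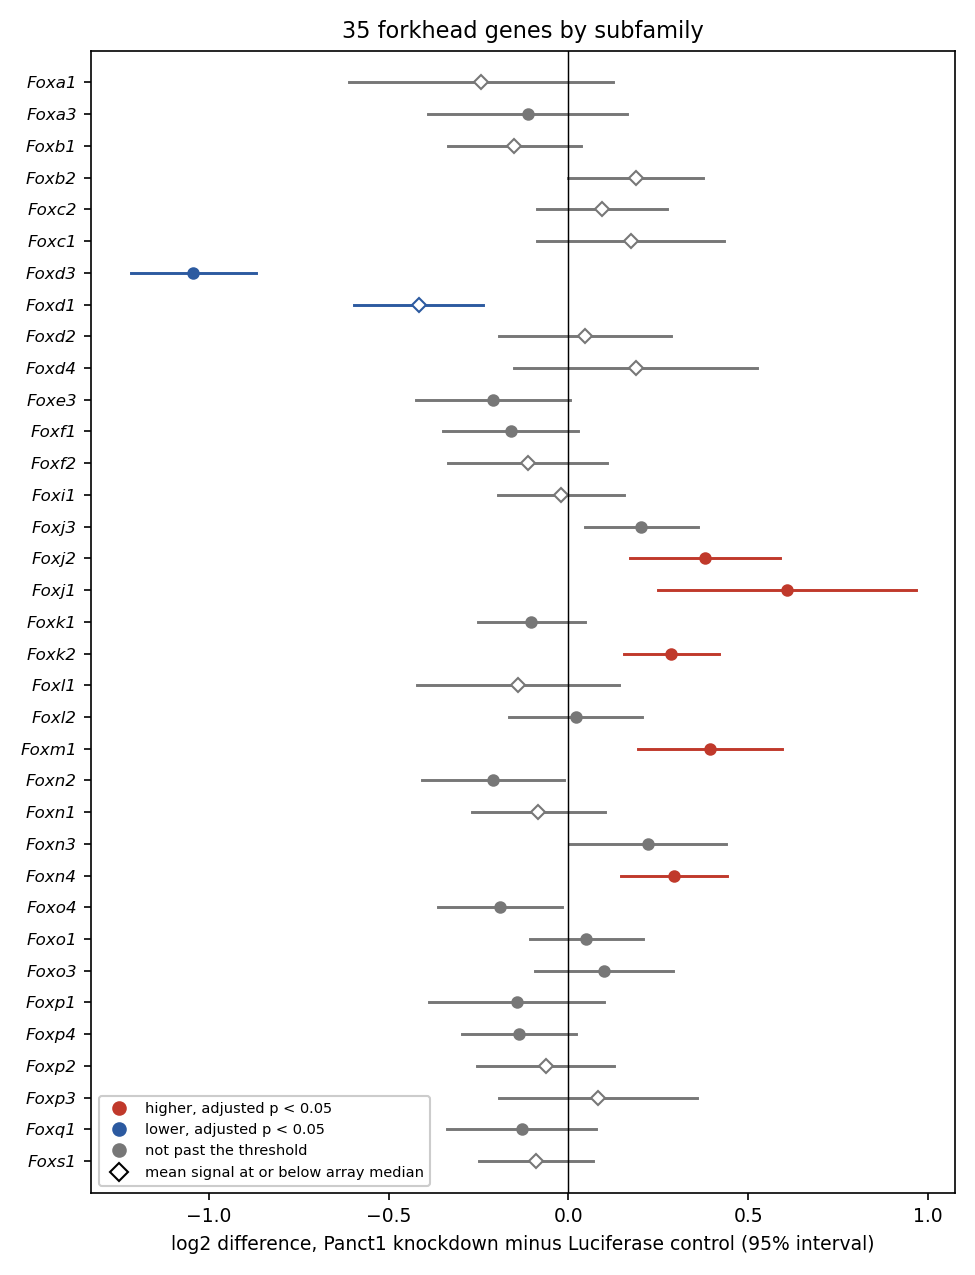
Log2 difference of each of the 35 forkhead genes, knockdown minus control, with its 95% interval from limma, in order of subfamily. Filled circles mark genes above the median signal of all probe sets and open diamonds those at or below it. Foxd3 lies alone at -1.04, and the 28 genes not past the threshold lie between -0.24 and 0.22.

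Foxd3, a repressor and pioneer factor of the embryonic stem cell and of the later neural crest, fell by more than any other member. Its signals were 9.46, 9.34 and 9.40 in the control arrays and 8.23, 8.46 and 8.38 in the knockdown arrays. The 3 knockdown arrays all lay well below the 3 controls, and the gap was several times the spread within either group. The mean went from 9.40 ± 0.06 (SD, n = 3) to 8.36 ± 0.12, and Foxd3 fell by 1.04 log2 units (SE 0.08; adjusted p = 3.49e-05 in limma), to a signal 2.06-fold lower. Of 18193 genes, 82 fell by that much or more, Foxd3 included. The fall passed in all 16 alternative settings, at -1.09 to -0.98, and 1 probe set read the gene.

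Foxd1, a paralogue of Foxd3 known from kidney stroma and the retina, was the other member that fell. It read 5.12, 5.22 and 5.35 in controls and 4.84, 4.88 and 4.72 in knockdown, with no overlap. Foxd1 fell by 0.42 log2 units (SE 0.08; adjusted p = 0.00512 in limma). All of these signals lie below the median of every array, so the size of the fall is measured close to background. The other D members, Foxd2, a gene of mesenchyme and kidney, at 0.05 and Foxd4 at 0.19, did not pass, and their arrays overlapped between the groups.

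The promoters of both genes that fell are shown with that of Foxk2, a member that rose, to set their CpG content side by side. Each runs from 250 bases before to 50 bases after the gene's start in the RefSeq table of build GRCm38.p6, 5′ to 3′ on the gene's strand, with CpG dinucleotides in capitals. Foxd3 lies on the plus strand at chr4:99656049-99656348, Foxd1 on the plus strand at chr13:98353995-98354294 and Foxk2 on the plus strand at chr11:121259737-121260036.
Foxd3: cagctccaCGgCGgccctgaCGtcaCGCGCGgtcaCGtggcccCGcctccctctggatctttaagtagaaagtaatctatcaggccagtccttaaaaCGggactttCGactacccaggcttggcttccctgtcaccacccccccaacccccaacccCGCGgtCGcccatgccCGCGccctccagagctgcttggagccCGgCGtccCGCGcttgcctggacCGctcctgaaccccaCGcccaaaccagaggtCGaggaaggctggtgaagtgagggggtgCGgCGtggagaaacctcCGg
Foxd1: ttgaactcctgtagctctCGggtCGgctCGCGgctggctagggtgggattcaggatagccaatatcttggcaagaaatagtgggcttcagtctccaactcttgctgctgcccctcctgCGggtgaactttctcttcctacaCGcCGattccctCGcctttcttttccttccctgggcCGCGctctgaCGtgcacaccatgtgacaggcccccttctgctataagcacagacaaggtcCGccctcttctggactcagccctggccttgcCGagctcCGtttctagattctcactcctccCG
Foxk2: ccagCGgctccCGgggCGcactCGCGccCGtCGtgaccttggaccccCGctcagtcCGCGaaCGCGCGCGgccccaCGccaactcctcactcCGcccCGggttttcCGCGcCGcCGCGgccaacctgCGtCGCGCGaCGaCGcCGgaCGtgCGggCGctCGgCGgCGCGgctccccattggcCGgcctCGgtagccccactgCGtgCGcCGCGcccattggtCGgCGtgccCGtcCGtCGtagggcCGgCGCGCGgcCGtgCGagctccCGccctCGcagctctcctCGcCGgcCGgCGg
Foxd3 holds 25 CpG dinucleotides in these 300 bases, Foxd1 15 and Foxk2 59, the most of any forkhead promoter listed. Of the other risen members, Foxj2 holds 37 and Foxn4 22, while Foxj1 and Foxm1 have no promoter listed. Whether CpG content goes with the direction of change was not tested. The 26 forkhead promoters listed, of 23 members, had a median of 23.5 CpG dinucleotides, and all 32851 promoters of that length had a median of 7. The forkhead consensus TGTTTAC, searched on both strands, was in 1 of the 26, that of Foxa1, and in 3.65% of all promoters. The CCAAT box, searched as CCAAT on both strands, was in 12 of the 26, Foxd1 and Foxk2 among them, and in 37.4% of all. The cell cycle element TTTGAA was in 3 of the 26 and 17.9% of all, the octamer ATGCAAAT in 0 and 1.74%, and the E2F motif TTTCCCGC in 0 and 1.07%, each on both strands. None of these motifs contains another, and a match is a run of letters and not a shown site.

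**Figure D2:**
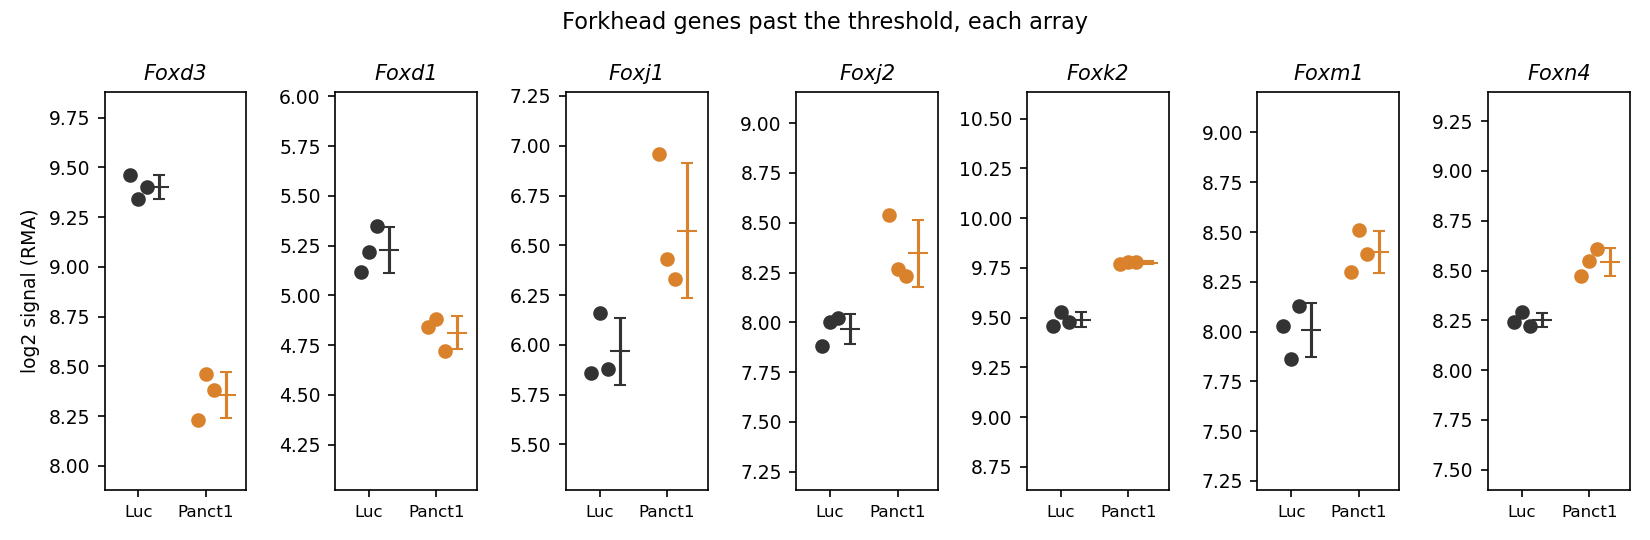
Log2 signal of the 7 forkhead genes past the threshold on each of the 3 Luciferase control arrays (Luc, dark) and 3 Panct1 knockdown arrays (Panct1, orange), with the mean and SD beside the points; every panel spans 2 log2 units. The groups do not overlap in any panel, and the Foxj1 knockdown arrays are the most spread, from 6.33 to 6.96.

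Foxj1, the switch of the motile cilium programme, had the largest rise of the family. Controls read 5.86, 6.16 and 5.88 and knockdown arrays 6.96, 6.43 and 6.33, with knockdown replicate 1 the highest. The groups did not overlap, but the gap between the nearest arrays was small beside the spread of the knockdown group. The difference was 0.61 (SE 0.16; limma adjusted p = 0.0225), a 1.52-fold rise. The control mean of 5.97 lay below the median of every array. The call was lost without Luciferase control replicate 1 (adjusted p = 0.0792) or replicate 3 (0.0715), over a range of 0.00934 to 0.0792 in all settings. The difference ranged from 0.41 to 0.73. It was 0.41, under the 1.5-fold minimum, without knockdown replicate 1. It was also under that minimum without control replicate 1 (0.55) or 3 (0.56) and with array weights (0.56).

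Genes of motile cilia moved in both directions. Of 22 measured genes on the cilium list, 1 rose and 2 fell, with a median of -0.03, against 12.9% and 11.3% of all genes. The share that changed in either direction was 8.25% of genes at or below the median signal and 32.4% of those above it. Rfx3, a transcription factor of ciliated cells, rose by 0.35 although its arrays overlapped, and its other probe set lay at -0.05. Rsph4a, of the radial spoke head, fell by 0.39 and Spag6l, of the central apparatus, fell by 0.25, both from signals below the array median. Neither the probe sets of Rfx3 nor that of Spag6l passed over all probe sets. Pifo, a gene of cilium disassembly, differed by 0.25 (limma adjusted p = 0.0824).

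Foxj2 and Foxj3, the broadly expressed relatives of Foxj1, also lay higher in knockdown, and Foxj2 passed. Foxj2 read 7.88, 8.00 and 8.02 in controls and 8.54, 8.27 and 8.23 in knockdown, a rise of 0.38 (SE 0.09; limma adjusted p = 0.0162). Its groups did not overlap, and knockdown replicate 1 was the highest array, as for Foxj1. The second, dim probe set of Foxj2 differed by 0.03. The call for Foxj2 was lost without Luciferase control replicate 1 (adjusted p = 0.0657) and with the mean of its probe sets (0.0958), over 0.00742 to 0.0958 in all settings. Foxj3 read 9.81, 9.87 and 9.77 in controls and 10.01, 9.94 and 10.11 in knockdown, with no overlap. Its difference of 0.20 (SE 0.07; limma adjusted p = 0.0632) did not pass, and its other probe sets differed by 0.13 and 0.04. Foxj3 did pass when limma's variance followed intensity and was made robust (adjusted p = 0.0394), or when genes above the median signal alone were tested (0.0374; 0.0374 to 0.172 over all settings).

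Foxk2 rose, and its close paralogue Foxk1 did not pass; both encode repressors that recruit the Sin3 complex and act on autophagy and glycolysis. Foxk2 read 9.46, 9.53 and 9.48 in controls and 9.77, 9.78 and 9.78 in knockdown. The knockdown arrays are the tightest group among the members that passed, and they lie well apart from the controls. Foxk2 rose by 0.29 (SE 0.06; limma adjusted p = 0.0073). Of 5 probe sets 2 passed over all probe sets, at 0.29 and 0.38, and the others differed by 0.14, 0.05 and -0.06. The mean of the 5 did not pass (0.16; adjusted p = 0.0672; 0.00237 to 0.0672 over all settings). Foxk1 read 7.90, 8.03 and 7.99 in controls and 7.82, 7.92 and 7.87 in knockdown, groups that overlap. Its difference was -0.10 (95% interval -0.25 to 0.05), and its other probe sets lay at -0.17 and -0.21 without passing. Whether Foxk1 and Foxk2 differ from each other was not tested.

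Foxm1, the activator of mitotic genes, rose by its brightest probe set. That set read 8.03, 7.86 and 8.13 in controls and 8.30, 8.51 and 8.39 in knockdown, with no overlap. The difference was 0.39 (SE 0.09; limma adjusted p = 0.0113), a 1.31-fold rise. The other probe sets did not follow at that size: one of nearly the same brightness differed by 0.11, a dimmer one by 0.15 and a very dim one by -0.08, and none of these 3 passed. With the mean of the 4 sets the difference was 0.14 (adjusted p = 0.162; 0.00249 to 0.162 over all settings), so the call rests on 1 probe set.

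Of 28 measured targets of FOXM1 and other G2/M genes, 1 rose and 4 fell, with a median of -0.04, against 12.9% and 11.3% of all genes. All 28 had a mean above the median signal, where 32.4% of genes changed in either direction. Cdkn3, a phosphatase that acts on cyclin-dependent kinases, rose by 0.52. Mybl2, which binds mitotic promoters ahead of FOXM1, fell by 0.67 from 10.90 to 10.23, and both of its probe sets passed. Cenpb, a centromere protein, fell by 0.37. Of its 2 probe sets, at -0.37 and -0.14, 1 passed over all probe sets. The spindle checkpoint kinase Ttk fell by 0.28, although neither of the 2 probe sets of Ttk passed over all probe sets. Kif2c, a microtubule depolymerase named here after its value was seen, fell by 0.23.

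Foxn4, which acts in retinal and spinal cord progenitors, rose by 0.29 (SE 0.06; limma adjusted p = 0.0105) on its 1 probe set. Controls read 8.24, 8.29 and 8.22 and knockdown arrays 8.47, 8.55 and 8.61, so the groups were apart by more than the spread of either. Its relative Foxn3, a checkpoint repressor also known from liver metabolism, is the member whose brightest probe set did not pass while others did. The brightest set read 9.31, 9.06 and 9.39 in controls and 9.43, 9.59 and 9.40 in knockdown, groups that only just part, and its difference of 0.22 did not pass (SE 0.10; limma adjusted p = 0.142). Of its other 3 sets, 2 rose over all probe sets. The first read 8.12, 8.22 and 8.45 in controls and 8.78, 8.84 and 8.73 in knockdown, a rise of 0.52 (adjusted p = 0.00623). The second rose by 0.32 (adjusted p = 0.0412), and the last differed by -0.01. With the mean of the 4 sets Foxn3 passed at 0.26 (adjusted p = 0.0269; 0.0269 to 0.372 over all settings). Foxn2 read 10.37, 10.25 and 10.45 in controls and 10.24, 10.21 and 9.99 in knockdown, groups that barely parted, and differed by -0.21 (limma adjusted p = 0.122), with its dim second set at -0.38. The mean of these 2 sets passed as lower (-0.29; adjusted p = 0.0301; 0.0301 to 0.311 over all settings). Foxn1, the thymus epithelium factor, differed by -0.08.

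**Figure D3:**
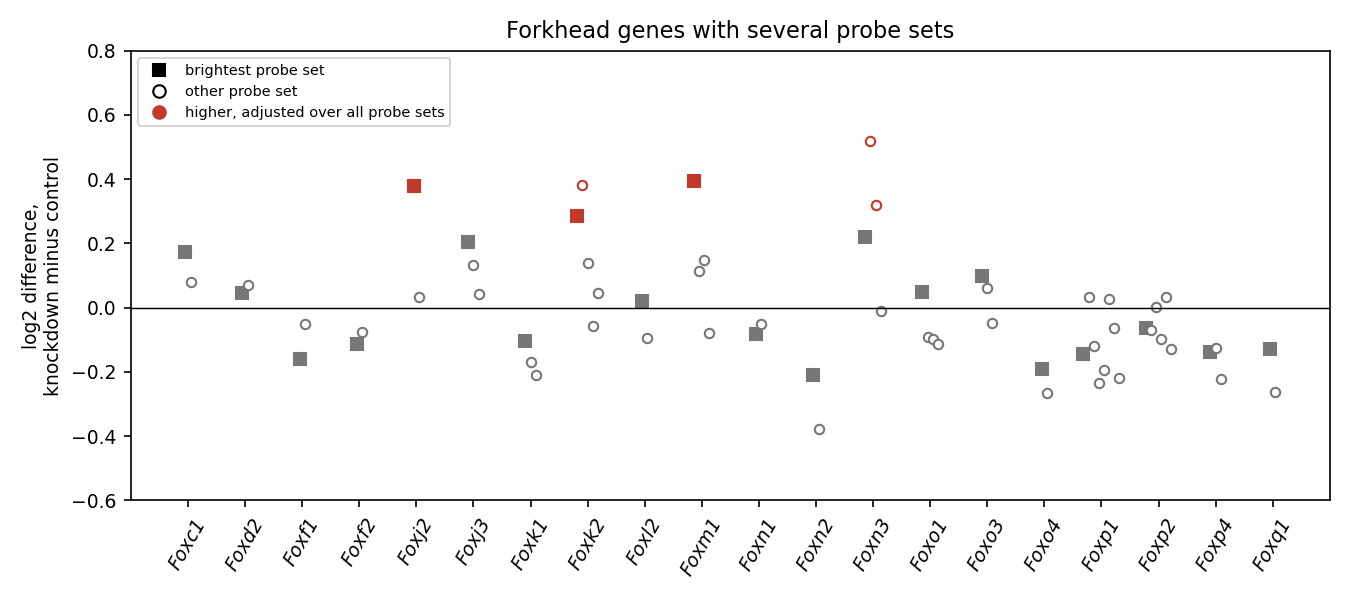
Log2 difference, knockdown minus control, of every probe set of the 20 forkhead genes with more than 1, squares for the brightest set used per gene and open circles for the others; red marks sets past the threshold over all probe sets. Foxk2 and Foxn3 have 2 sets past it each, Foxj2 and Foxm1 1 each, and every red set lies above 0.

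Over all 78 forkhead probe sets, 8 rose and 2 fell, which is 12.8% against 14.6% of all probe sets. At least 1 probe set passed for 8 genes, the 7 above and Foxn3. No gene had probe sets past the threshold in both directions. Probe sets of 1 gene read different stretches of its transcripts, and which isoforms they read was not assessed.

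The FOXO genes, effectors of insulin and growth factor withdrawal, did not pass. Foxo1 read 9.53, 9.63 and 9.68 in controls and 9.63, 9.74 and 9.62 in knockdown, and the groups overlapped. Its difference was 0.05 (95% interval -0.11 to 0.21), and its 3 other probe sets lay at -0.09, -0.10 and -0.11, so even the sign depends on the set. Foxo3 read 9.52, 9.69 and 9.73 against 9.86, 9.63 and 9.75, a difference of 0.10 with overlapping groups (95% interval -0.09 to 0.29). Foxo4 read 9.27, 9.13 and 9.23 against 8.92, 9.01 and 9.13, groups that meet at 9.13, a difference of -0.19 (95% interval -0.36 to -0.02; limma adjusted p = 0.107). With array weights Foxo4 did pass as lower (-0.21; adjusted p = 0.034; 0.034 to 0.28 over all settings). FOXO proteins are controlled mostly by phosphorylation and location, which RNA levels do not show.

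Of 28 measured regulators of the FOXO proteins 6 rose and 4 fell, with a median of 0.10, against 12.9% and 11.3% of all genes. All 28 had a mean above the median signal, and 32.4% of genes that bright changed in either direction. The insulin receptor substrate Irs2, which couples the receptors to PI3 kinase, rose 2.63-fold (adjusted p = 4.05e-06 in limma), with a mean of 7.33 ± 0.03 (SD, n = 3) in controls and 8.72 ± 0.04 in knockdown. Irs1 rose 2.11-fold (adjusted p = 0.00149), the IGF1 receptor gene Igf1r 1.62-fold (adjusted p = 0.00049) and the insulin receptor gene Insr 1.52-fold (adjusted p = 0.0028). Irs1 and Irs2 have 1 probe set each, while 2 of 5 sets for Igf1r and 1 of 3 for Insr passed over all probe sets, the rest reaching down to -0.05 and -0.04. Of regulators named after their values were seen, the PI3 kinase subunit gene Pik3r1 rose by 0.41 and Mtor by 0.30. The deacetylase gene Sirt1 fell by 0.64, the kinase gene Ikbkb fell by 0.39, Sgk1, a kinase that phosphorylates FOXO proteins, fell by 0.33, and Akt2 fell by 0.22.

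Known FOXO targets went both ways. Of 36 measured 13 rose and 7 fell, with a median of 0.09, against 12.9% and 11.3% of all genes. In either direction, 32.4% of genes above the median signal changed and 8.25% of the others. Irs2 and Insr stand on this list too. Gabarapl1, an autophagy gene, rose 2.27-fold from 8.78 to 9.96, and both its probe sets passed. Gadd45b, a stress response gene, rose 2.08-fold, and 2 of its 3 probe sets passed over all probe sets, with the lowest set at 0.24. Bcl2l11, the cell death gene Bim, rose 2.02-fold from 9.55 to 10.57, and all 5 of its probe sets passed, at 0.57 to 1.02. Of targets named after their values were seen, Sesn3, a sestrin that restrains mTORC1, rose by 0.85, Cav1 by 0.70, the cell cycle inhibitor gene Cdkn1b by 0.63, Bcl6 by 0.56 and Ccng2 by 0.43. Among those that fell were Rbl2, a pocket protein gene of cell cycle exit, which fell by 0.85, the superoxide dismutase gene Sod2 and the naive pluripotency gene Klf2, which each fell by 0.55. Many of these genes have other regulators, and no FOXO binding was measured here.

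**Figure D4:**
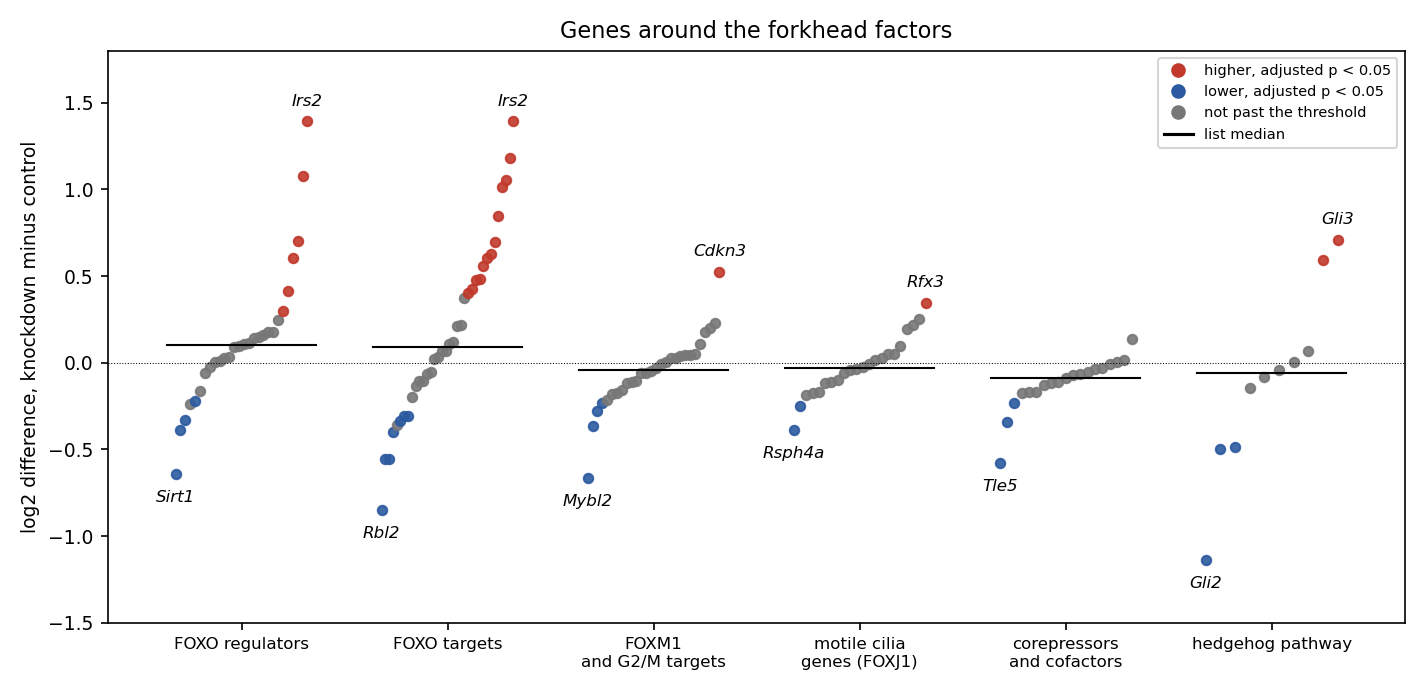
Log2 difference, knockdown minus control, of each measured gene on the lists around the forkhead factors, in rising order within a list, with the list median as a line; red and blue mark genes that passed as higher and lower. The FOXO lists reach from -0.85 (Rbl2) to 1.39 (Irs2), while 22 cilium genes stay between -0.39 and 0.35.

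The FOXP genes, leucine zipper forkhead repressors, did not pass on any of 18 probe sets. Foxp1 read 10.97, 10.75 and 11.10 in controls and 10.69, 10.97 and 10.73 in knockdown, with overlap, and differed by -0.14 (95% interval -0.39 to 0.10). Its 8 probe sets ranged from -0.23 to 0.03. Foxp4 read 7.07, 6.93 and 7.12 against 6.92, 6.87 and 6.92, groups that just parted, and differed by -0.14 (limma adjusted p = 0.203). Foxp2, known from speech circuits, differed by -0.06 and Foxp3, the regulatory T cell factor, by 0.08.

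The remaining members are known from other tissues, and none passed. Foxa1, an endoderm pioneer factor, read 5.57, 6.07 and 5.91 in controls and 5.75, 5.80 and 5.27 in knockdown. It differed by -0.24 (95% interval -0.61 to 0.12), and its groups overlapped. Foxa3, of liver and gut, differed by -0.11, a sign that turned with array weights and without Luciferase control replicate 2. Foxl2, of the ovary, differed by 0.02, and its sign turned in 5 of 16 settings. Foxf1, of visceral mesenchyme, read 7.04, 6.99 and 7.01 against 6.99, 6.69 and 6.88, with the groups meeting at 6.99, and differed by -0.16 (limma adjusted p = 0.21). With array weights it passed as lower (-0.25; adjusted p = 0.0362; 0.0362 to 0.579 over all settings). Foxe3, of the lens, differed by -0.21 (limma adjusted p = 0.149) and Foxq1, of stomach and hair, by -0.13. Foxb1 and Foxb2, of the early nervous system, lay at -0.15 and 0.19. Foxc1 and Foxc2, of mesoderm and vessels, lay at 0.17 and 0.09, and Foxf2 and Foxl1, of gut mesenchyme, at -0.11 and -0.14. Foxi1, of the inner ear, lay at -0.02 and Foxs1 at -0.09. For 4 of the 35 members, Foxc1, Foxc2, Foxi1 and Foxp3, every array lay below the lower quartile, so a missing call says little there. For 26 of the 28 members that did not pass, the 95% interval of the brightest probe set lay within 0.5 of 0, and for all 28 within 1. The 26 include these 4 dim members, where a narrow interval says little because differences of dim sets are compressed. They also include Foxn3 and Foxn2, for which another probe set had an interval of 0.31 to 0.73 and of -0.68 to -0.08.

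Forkhead genes that lie side by side in the genome were compared as well. In the GRCm38.p6 gene order Foxq1, Foxf2 and Foxc1 follow one another on chromosome 13, as do Foxd2 and Foxe3 on chromosome 4. Foxc2 and Foxl1 adjoin on chromosome 8, with 1 protein-coding gene between Foxf1 and Foxc2. None of these 8 genes passed. Among the nearest measured genes on each side of the 7 members that passed, 3 of 14 rose and 1 fell, against 24.2% of all genes in either direction. Atg4c and Alg6, which flank Foxd3, differed by -0.02 and -0.04. Rhno1, a DNA damage response gene next to Foxm1, rose by 0.61, although its second probe set lay at -0.07. Slc2a3, the glucose transporter gene next to Foxj2, rose by 0.57 on its brightest probe set, and all 4 of its sets passed, at up to 1.48. Rnf157 next to Foxj1 rose by 0.30 and Acacb next to Foxn4 fell by 0.47.

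Of 19 measured corepressors and cofactors of forkhead proteins 0 rose and 3 fell, with a median of -0.09, against 12.9% and 11.3% of all genes. In either direction, 32.4% of genes above the median signal changed and 8.25% of the others. Tle5, a short Groucho-family protein, fell by 0.58, Gatad2a, of the NuRD complex, fell by 0.34, and Sin3b, the Sin3 scaffold, fell by 0.23, with 1 of 5 probe sets past the threshold over all probe sets. Hdac2 differed by -0.17 (limma adjusted p = 0.0813), although 1 of its 3 probe sets, at -0.27 to -0.10, passed as lower over all probe sets. Of 10 measured genes of the hedgehog pathway, which induces FOXF and FOXL genes in mesenchyme, 2 rose and 3 fell, against the same shares of all genes. Gli2, a hedgehog effector, fell by 1.14, and its other probe set lay at -1.02. Hhip, a hedgehog antagonist gene, fell by 0.48 and Gli1, named after its value was seen, fell by 0.50. Gli3 rose by 0.71 and the receptor component gene Smo by 0.59. For each of them 2 of 3 probe sets passed over all probe sets, the lowest lying at 0.15 for Gli3 and 0.007 for Smo.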

How the data were processed

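The table the authors deposited gives log2 signals of probe sets, rounded to 2 decimals. GCOS 1.4 and RMA made them, per the submitters' processing notes. RMA corrects background, quantile-normalises and summarises probes; which arrays were normalised together is not given in the sources used here. Differences of dim sets are compressed by this, and precision is limited by having 6 arrays. Arrays were grouped by title; nothing says that replicates were separate cultures, so the spread behind each p-value may be technical, and p-values measure that spread alone. At most 3.20% of probe sets had equal values on any pair of arrays.

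Of 45101 probe sets 64 controls were left out. Of the rest 34945 had 1 symbol, 932 several and 9160 none. Of those with 1 symbol, 34741 were matched by gene ID to RefSeq (GRCm38.p6). The brightest set per gene gave 18193 genes. limma 3.58.1 (lmFit, eBayes; R 4.3.3) was fitted with group as the only term, two-sided, with Benjamini-Hochberg adjustment over all genes or, for probe sets, over all probe sets. The threshold was an adjusted p under 0.05. No low-value filter was used. The script was tested on simulated data. Named with values were members past the threshold, members above the median signal, Foxd3, Foxo1, Foxo3, Foxp1, Foxm1 and Foxk1, and the 4 smallest p-values of each pathway list; genes outside the rule, including the other forkhead members and the neighbouring genes, were named with their values seen. Members and lists were chosen with earlier results of these data known. Alternatives were a replicate block, median centring, array weights, quantile normalisation run again, a robust variance with intensity trend, a filter on dim genes, each array left out in turn, cross-hybridising sets removed, other uses of probe sets and a 1.5-fold minimum.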

Additional observations from a re-analysis of the deposited data

How the results depend on the processing

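Over 21 named members and 335 checks, 308 kept direction and side of the threshold, 11 lost a call, 7 gained one and 9 turned sign; the cause was not tested. Foxd3 kept its call in all 16 settings. The count of 7 forkhead genes was 2 with a 1.5-fold minimum (1 higher, 1 lower) and 5 to 7 on leaving out 1 array. It was 10 with array weights (6 higher, 4 lower) and 8 with the robust variance and intensity trend (6 higher, 2 lower). With the mean of probe sets 3 were higher, Foxj1, Foxn4 and the newly called Foxn3, and 3 were lower. The 5 higher were 3 to 5 on leaving out 1 array, with 3 without Luciferase control replicate 1. The 2 lower were 4 with array weights, 1 among genes above the median signal, where Foxd1 is not tested, and 2 on leaving out any array. Over all genes, 4404 became 1227 with a 1.5-fold minimum (837 higher, 390 lower) and 3133 to 3986 on leaving out 1 array (1744 to 2203 higher, 1371 to 1783 lower). For 4 members every array lay below the lower quartile, where signal over background limits any call. Counting a gene through any of its probe sets, chosen after seeing the data, gave 8. Signs turned for Foxa3 with array weights (0.0015) and without Luciferase control replicate 2 (leaving out 1 array: -0.21 to 0.022), and for Foxo1 with cross-hybridising sets removed (-0.09) or probe sets averaged (-0.0625). Foxl2 turned with repeated quantile normalisation (-0.019), array weights (-0.056), probe sets averaged (-0.037), and without Panct1 knockdown replicate 3 or Luciferase control replicate 3 (leaving out 1 array: -0.052 to 0.073). Same-numbered arrays did not deviate together, with correlations of -0.19, -0.26 and -0.10 across genes, so no pairing by number was seen. For arrays of different number they were -0.11 to 0.28. Knockdown replicate 1 deviated with control replicate 2 (0.27), knockdown replicate 2 with control replicate 3 (0.28) and knockdown replicate 3 with control replicate 1 (0.21). Every other pair was negative. Deviations from a group mean cancel over the arrays of that group, so the correlations of an array with the other group largely balance. The negative values are therefore no separate sign of a match. The labels give no such match and no block on it was fitted, so the standard errors hold any variation these arrays share. With the replicate block on number 7 forkhead genes passed, 5 higher and 2 lower, which does not test this match.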

Other observations

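Probe sets shared by several genes stood outside the family as defined. The one assigned to Foxm1, Tex52 and Pebp1 read 8.05, 7.90 and 8.22 in controls and 8.67, 8.62 and 8.59 in knockdown, a rise of 0.57 (SE 0.09; limma adjusted p = 0.00328 over all probe sets). Which of the 3 genes it reads was not tested; Tex52 on its own probe set differed by -0.16. The one assigned to Foxo3 and Gm38485 differed by 0.02 and did not pass.

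A dim Foxp1 probe set varied more between arrays of 1 group than any other forkhead probe set. It read 6.08, 5.24 and 6.42 in controls and 5.20, 6.32 and 5.56 in knockdown, while the brightest Foxp1 set spanned 10.69 to 11.10. Both groups held low and high arrays, and the difference between groups was -0.22 (SE 0.33). Lowest were knockdown replicate 1 and control replicate 2, and highest were knockdown replicate 2 and control replicate 3. Both of these pairs also deviated together across genes (correlations of 0.27 and 0.28).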
